A study of Mus musculus with 6 samples.

Results

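Annexins bind the phospholipids of cell membranes when calcium is present, through a conserved core, and differ from each other mainly in their N-terminal tails. Small S100 proteins with EF-hand calcium-binding folds dock on some of these tails: S100a10 joins Anxa2 in a complex that links membranes to actin and binds plasminogen at the cell surface, and S100a11 binds Anxa1. In epithelia the family takes part in vesicle traffic, membrane repair and the attachment of the cell cortex to the membrane. The 10 genes described here are Anxa1, Anxa2, Anxa3, Anxa4, Anxa5, Anxa6, Anxa7, Anxa11, S100a10 and S100a11, out of 19057 genes named by a probe of the array. They were chosen by family and by their measured difference between wild type and Pax6-/- tissue on these same arrays. Their differences are therefore given as a description, with no test and no p-value.

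The tissue was the lens placode of wild type mouse embryos and the surface ectoderm of Pax6-/- embryos, both at embryonic day 9.5 on a mixed FVB and 129 background. Pax6 encodes a transcription factor that eye development requires, and the sources used here do not give the Pax6 allele. Tissue was microdissected from sections of 10 µm, RNA from 3 embryos was pooled for each genotype, and 3 amplified samples per genotype were each put on 1 Illumina bead array. As the labels describe it, the p-values below measure only the spread between amplified samples of pooled RNA, which may be technical. Genotype and labelled tissue change together and cannot be told apart, and in tissue samples fewer cells of a type cannot be told apart from less RNA per cell.

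Values are normalized log2 signals, which can be compared between arrays for 1 probe but not between probes. A probe was detected on an array where its detection p was under 0.05. Of 45281 probes, 17276 were detected on Pax6-/- replicate 2 and 21062 to 22712 on each other array. That array also read 11.68 for Xist, the RNA that coats the inactive X chromosome, where the other 5 lay between 4.63 and 4.90, so results that rest on it are also given without it. This gap sits against the labels' account of RNA pooled within a genotype, and its cause was not tested. Pax6 itself was lower on all 3 Pax6-/- arrays, by 0.66 on its brightest probe. Among 9 lens placode markers, 7 were measured, while no probe of Cryaa was detected on any array and Foxe3 was not kept. Of 15 surface ectoderm markers, 13 were measured and detected on every array of both genotypes.

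All 10 genes were measured, through 14 kept probes of 20 on the array, where a kept probe was detected on at least 3 arrays. On the brightest kept probe of each gene, 5 of the 10 showed no overlap between wild type and Pax6-/- arrays. Anxa1, Anxa5 and Anxa6 lay lower in Pax6-/-, and Anxa2 and S100a10 lay higher. Over all 10967 genes measured, 17.5% had no overlap, 10.3% with Pax6-/- lower and 7.21% with Pax6-/- higher. Since the members were chosen from this contrast, nothing is read from the member count against that share. The median difference of the 10 genes, Pax6-/- minus wild type, was -0.01, beside -0.07 for all genes. The members therefore did not move one way: the family held both large positive and large negative differences.

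**Figure D1:**
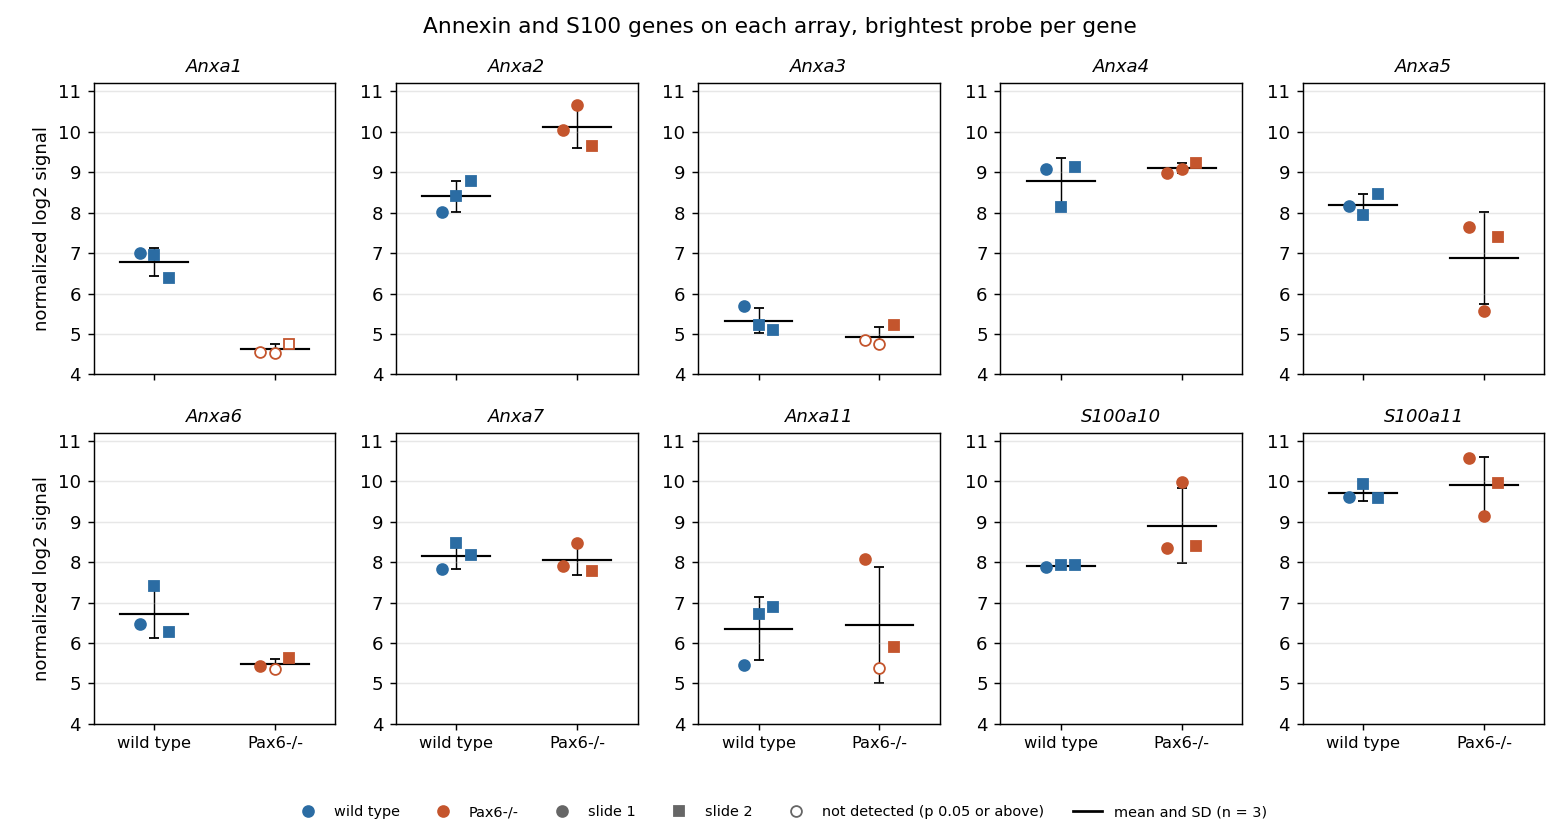
Normalized log2 signal (vertical axis) of the brightest kept probe of each of the 10 genes on the 3 wild type and 3 Pax6-/- arrays. Bars give the mean and SD (n = 3), circles and squares the slide, and open symbols arrays where the probe was not detected. Anxa1 is open on all 3 Pax6-/- arrays, and the Anxa2 points of Pax6-/- lie between 9.65 and 10.65, above every wild type point.

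The regions upstream of Anxa1, Anxa2 and Anxa5 are shown because these had the largest differences with all arrays and did not all differ in the same direction. The place of Anxa5 rests on Pax6-/- replicate 2, without which Anxa5 was at -0.68 and Anxa6, which has no sequence here, at -1.20. RefSeq promoter sequence of build GRCm38.p6 was matched for 7 of the 10 genes. The 250 bases before the start site follow, read on the gene's strand: chr19:20390672-20390921 on the minus strand for Anxa1, chr9:69453433-69453682 on the plus strand for Anxa2, and chr3:36475888-36476137 on the minus strand for Anxa5. Capitals mark the TATA box TATAAA, the GC box GGGCGG and the motif of AP-1 factors, TGANTCA, where present.
Anxa1: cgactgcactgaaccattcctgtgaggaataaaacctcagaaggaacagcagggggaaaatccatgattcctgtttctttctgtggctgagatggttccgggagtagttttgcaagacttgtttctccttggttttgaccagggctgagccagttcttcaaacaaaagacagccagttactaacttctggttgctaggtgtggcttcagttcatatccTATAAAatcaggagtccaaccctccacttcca
Anxa2: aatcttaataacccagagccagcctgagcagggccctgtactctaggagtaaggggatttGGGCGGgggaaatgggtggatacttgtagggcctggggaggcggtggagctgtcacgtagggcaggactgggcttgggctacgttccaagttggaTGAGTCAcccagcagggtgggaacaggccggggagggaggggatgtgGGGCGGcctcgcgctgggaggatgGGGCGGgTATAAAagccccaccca
Anxa5: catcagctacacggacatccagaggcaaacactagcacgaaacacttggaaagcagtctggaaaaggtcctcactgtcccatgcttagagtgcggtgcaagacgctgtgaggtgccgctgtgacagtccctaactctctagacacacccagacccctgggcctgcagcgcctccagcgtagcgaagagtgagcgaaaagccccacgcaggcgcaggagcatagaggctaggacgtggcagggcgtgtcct

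The windows were searched on both strands for 6 motifs: the TATA box TATAAA, the GC box GGGCGG, the AP-1 motif TGANTCA, the paired-domain core TTCACGC, a homeodomain pair made of TAAT and ATTA with 3 bases between them, and the Maf half-site TGCTGA. Anxa1 and Anxa2 each held TATAAA, 32 and 17 bases before the start site. Anxa2 also held GGGCGG at 190, 48 and 24 bases and TGANTCA at 95 bases before the start site. None of these matches overlapped another. The Anxa5 window held none of the 6 motifs, and its GC content was 58.8%, against 46% for Anxa1 and 62.4% for Anxa2. Among 32851 RefSeq promoters of the same length, 12.4% held TATAAA, 32.7% GGGCGG, 6.75% TGANTCA, 1.03% TTCACGC, 0.463% the homeodomain pair and 16.1% TGCTGA. The last 3 were in none of the 9 windows of the 7 matched genes. TGANTCA was also found in the window of S100a11, at 136 and 38 bases before its start site. GGGCGG also occurred in members with overlapping genotypes, 3 times each in the windows of S100a11 and Anxa11. It occurred 4 times in 1 window of Anxa7 and 1 time in the other. These 2 windows overlap, and the single match is the same site as 1 of the 4. A match is only a run of letters, and its absence says nothing about a factor.

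Anxa1 was detected in wild type alone. It encodes a protein induced by glucocorticoids that inhibits phospholipase A2 and acts on formyl peptide receptors. Its single probe read 6.99, 6.96 and 6.38 in wild type and 4.55, 4.54 and 4.76 in Pax6-/-. The wild type arrays all lay above the Pax6-/- arrays, and the SD within wild type was 0.34 and within Pax6-/- 0.13 (n = 3). Wild type arrays all detected the probe, and no Pax6-/- array did, with detection p-values of 0.622, 0.683 and 0.0929 there. Pax6-/- tissue thus has only an upper limit. With the weakest detected signals of those arrays in its place, Anxa1 was lower by at least 3.33-fold than the wild type mean. This limit holds only at the background offset of 16 used here. The full difference at an offset of 50, given below, is smaller than it. The fitted difference was -2.16 (SE 0.28), and it lay between -2.36 and -2.05 when any 1 array was left out. Before normalization the average bead signal was 177, 176 and 123 in wild type and 53.8, 51.2 and 61.2 in Pax6-/-. With a larger background offset of 50 the difference was -1.30, smaller in size than the 1.61 of Anxa2, so that the order of these genes depends on the offset. The signals came from 34 to 47 beads per array, with a bead standard error of 3.34% to 5.81% of the signal.

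S100a11, the EF-hand partner that binds Anxa1, did not share this pattern. It read 9.61, 9.92 and 9.59 in wild type and 10.58, 9.15 and 9.95 in Pax6-/-. The genotypes overlapped, and the Pax6-/- arrays spread over 1.43 against 0.33 in wild type. The difference was 0.19 (SE 0.40), and it was 0.56 without Pax6-/- replicate 2 and -0.16 without Pax6-/- replicate 1. Without Pax6-/- replicate 2 the genotypes no longer overlapped, and S100a11 lay higher in Pax6-/-.

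Anxa2 and its partner S100a10 both lay higher in Pax6-/-. Anxa2, the subunit that binds membrane and actin, read 8.02, 8.41 and 8.78 in wild type and 10.04, 10.65 and 9.65 in Pax6-/-. Every Pax6-/- array lay above every wild type array. The difference was 1.71 (SE 0.36), or 3.27-fold, and it was 1.44 without Pax6-/- replicate 2. Within slide 1, which held Pax6-/- replicate 2, it was 2.32, and within slide 2 it was 1.05. The unnormalized signal showed the same order, with 317, 433 and 491 in wild type and 1114, 1270 and 828 in Pax6-/-. A second Anxa2 probe, designed to another transcript record, was detected on no array.

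S100a10, which has lost calcium binding and holds the Anxa2 tails together, read 7.89, 7.93 and 7.92 in wild type. In Pax6-/- it read 8.35, 9.97 and 8.39. The wild type arrays were nearly level, Pax6-/- replicates 1 and 3 lay a little above them, and Pax6-/- replicate 2 lay far above all others. The difference was 0.99 (SE 0.47), or 1.99-fold, and was 0.46 without Pax6-/- replicate 2. Unnormalized signals were 294, 313 and 282 in wild type and 396, 785 and 373 in Pax6-/-. Pax6-/- replicate 2 was thus the highest of the 6 arrays for both Anxa2 and S100a10, at 2.25 and 2.06 above the wild type mean.

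Anxa5 and Anxa6 were the other 2 members with separate genotypes, both lower in Pax6-/-. Anxa5, which binds phosphatidylserine and is widely used to label dying cells, read 8.17, 7.95 and 8.47 in wild type and 7.64, 5.56 and 7.40 in Pax6-/-. The genotypes did not overlap, but Pax6-/- replicate 2 lay 2.64 below the wild type mean and the other 2 Pax6-/- arrays only 0.55 and 0.80 below it. The difference was -1.33 (SE 0.56) with all arrays and -0.68 without Pax6-/- replicate 2. Its probe passed as detected on that array only narrowly, with a detection p of 0.0406. The value of 5.56 lay near the lowest detected value of that array, 5.39. The unnormalized signal there was 67.5, against 211 and 264 on the other Pax6-/- arrays and 317 to 400 in wild type.

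Anxa6, a larger annexin with a repeated core that is found at the plasma membrane and endosomes, read 6.48, 7.42 and 6.28 in wild type. In Pax6-/- it read 5.43, 5.36 and 5.62. The Pax6-/- arrays lay close together below the wild type arrays, and wild type replicate 2 stood above the other wild type arrays. The difference was -1.25 (SE 0.36), and it lay between -1.48 and -0.91 when 1 array was left out, the smaller size being without wild type replicate 2. With normexp background correction at an offset of 50 it was -0.77. Detection failed only on Pax6-/- replicate 2. The other 2 Anxa6 probes did not pass the detection filter.

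The remaining annexins had overlapping genotypes. Anxa7, which promotes fusion of secretory granules, read 7.82, 8.48 and 8.18 in wild type and 7.90, 8.46 and 7.77 in Pax6-/-, with a difference of -0.12 (SE 0.32). Both genotypes covered nearly the same range. Anxa3 was dim, at 5.09 to 5.68 in wild type and 4.74 to 5.21 in Pax6-/-, and was detected on 1 of the Pax6-/- arrays. Its difference was -0.39 (SE 0.29), its second kept probe gave -0.51 (SE 0.32), and both probes overlapped between genotypes. The mean of the kept probes, at -0.45, did not overlap and lay lower in Pax6-/-.

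Anxa11, which binds the calcium sensor Pdcd6 and tethers RNA granules to lysosomes, was the least steady member. Its kept probe read 5.45, 6.72 and 6.88 in wild type and 8.07, 5.37 and 5.89 in Pax6-/-. The Pax6-/- arrays held both the highest and the lowest value of the 6. The difference of 0.09 (SE 0.75) became -0.72 without Pax6-/- replicate 1 and 0.63 without Pax6-/- replicate 2. The within-genotype SD of Anxa11 was 1.15, against a median of 0.44 over the 10 genes and 0.47 over all genes. The other 2 Anxa11 probes did not pass the detection filter and were brightest on Pax6-/- replicate 3, not on replicate 1.

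Anxa4, an epithelial annexin, was read by 3 kept probes that did not move alike. On the brightest, wild type read 9.08, 8.14 and 9.13 and Pax6-/- read 8.98, 9.09 and 9.23. Only wild type replicate 2 stood apart, and the difference of 0.32 (SE 0.34) was 0.00 without it. On the second probe wild type replicate 2 was instead the highest wild type array, at 7.75 against 7.22 and 7.27, and Pax6-/- read 6.44, 6.18 and 7.48. That probe gave -0.71 (SE 0.40) and the remaining one -0.14 (SE 0.38), so the sign for Anxa4 depended on the probe. Both of these were designed to the same transcript record, and the brightest probe to another one. The mean of the 3 probes gave -0.18.

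**Figure D2:**
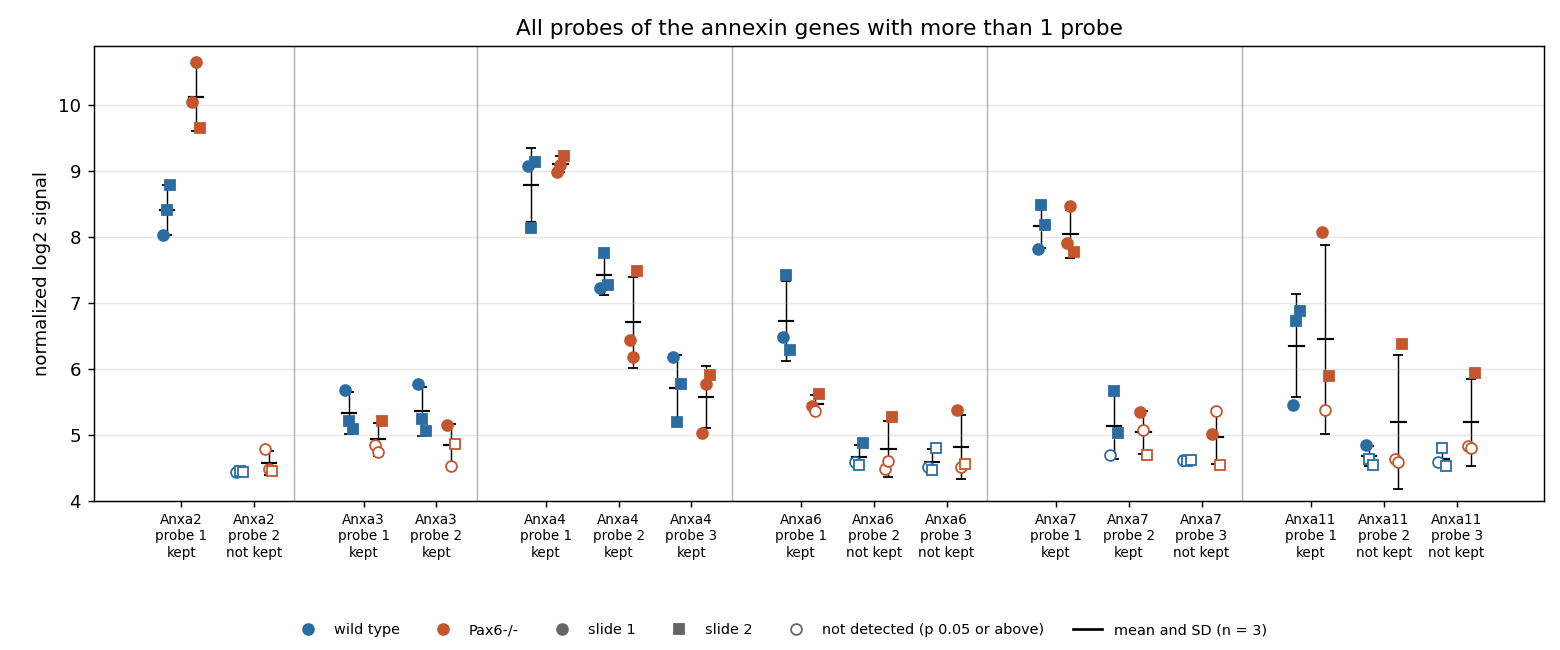
Normalized log2 signal (vertical axis) of every probe of the 6 annexin genes with more than 1 probe, by genotype, with mean and SD (n = 3). Only Anxa3, Anxa4 and Anxa7 have more than 1 kept probe, and the 3 Anxa4 probes differ in the order of the genotypes (differences of 0.32, -0.71 and -0.14).

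Leaving out arrays and changing the processing moved the members to different degrees. Under the alternatives, the sign of Anxa1, Anxa2, Anxa5, Anxa6 and S100a10 was kept in all 88 values obtained for them. These members had no overlap, so leaving out an array or taking a single slide could not turn their sign. Only other background correction, other normalization or the authors' values could have done so, and the count of 88 is no measure of steadiness. For Anxa1 the size ranged from -2.60 with the authors' processed values to -1.30 with a larger background offset. The authors' values were given a floor of 16 here, and the -2.60 may depend on it, since no Pax6-/- array detected Anxa1. The signs of Anxa3, Anxa4, Anxa7, Anxa11 and S100a11 each turned under at least 1 alternative or single-slide value. Scaling arrays to a common median instead of quantile normalization moved the median of all genes to -0.20 and turned Anxa11 and S100a11 to -0.03.

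**Figure D3:**
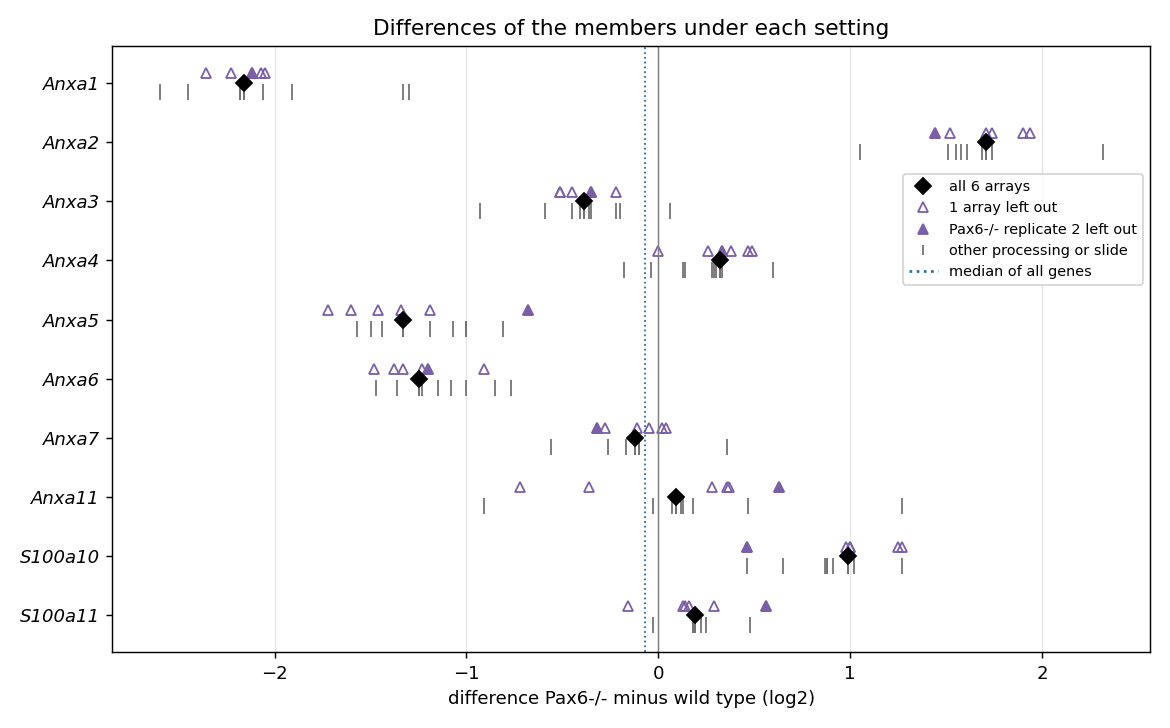
Difference Pax6-/- minus wild type (log2, horizontal axis) of each gene with all 6 arrays (diamonds), with 1 array left out (triangles, filled for Pax6-/- replicate 2) and under other processing or within 1 slide (ticks). The dotted line is the median of all genes, -0.07. Without Pax6-/- replicate 2, Anxa5 is at -0.68 and S100a10 at 0.46, while Anxa1 is at -2.12.

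The arrays came from 2 slides, which gave a contrast that did not serve to choose the members. In a limma fit with genotype and slide as terms, 0 of the 14 kept member probes had a Benjamini-Hochberg adjusted p under 0.05, and 0 an unadjusted p under 0.05. Over all 21971 probes 0% passed as well, and 683 had an unadjusted p under 0.05, so the count of 0 is no result about the members. The largest slide difference among the member probes was 0.73 (SE 0.36), on the second Anxa4 probe, and Anxa2 gave -0.06 (SE 0.42).

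Other genes of annexin and S100 biology were read from lists of 89 gene symbols, of which 45 were measured. A few of the symbols are older names of genes that are also listed. In the limma fit over all 21971 probes, 2 probes, or 0.00910%, had an adjusted p under 0.05 between genotypes, both of Tnc. None of the 45 genes passed in either direction (smallest adjusted p = 0.291), and 3 had an unadjusted p under 0.05, all lower in Pax6-/-, or 6.67% beside 9.09% of all genes. Of the 45 genes, 5 had no overlap of the genotypes, 1 higher and 4 lower, or 11.1% beside 17.5% of all genes. Their median difference was -0.03.

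No other annexin was measured: Anxa8, Anxa10 and Anxa13 were detected on no array, and Anxa9 on 1 array of each genotype. Of 14 other S100 genes 3 were measured, none with separate genotypes, with a median of 0.52. S100a6, which binds several annexins, read 6.00, 7.06 and 5.21 in wild type and 6.75, 7.18 and 6.39 in Pax6-/-, a difference of 0.68 (SE 0.50, adjusted p = 0.678 by limma). S100a1 was detected in wild type alone, close to background at 4.82 to 5.35, and its difference was -0.37 (adjusted p = 0.674).

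Among 12 partners of Anxa2 and S100a10 and genes of plasminogen activation, 6 were measured, 4 with positive and 2 with negative differences and a median of 0.18. Ahnak, a giant scaffold protein that binds the complex, read 11.54, 11.43 and 11.54 in wild type and 12.10, 11.50 and 12.23 in Pax6-/- (0.44, adjusted p = 0.654). Plat, tissue plasminogen activator, was at -0.93 (adjusted p = 0.671) and spread from 5.68 to 8.40 within Pax6-/-. Both genes overlapped between genotypes.

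The phospholipase Pla2g4a, which Anxa1 inhibits, had the smallest p of the 45 genes. It read 7.23, 7.41 and 7.90 in wild type and 6.06, 5.06 and 6.24 in Pax6-/-, with no overlap and a difference of -1.72 (SE 0.39, adjusted p = 0.291). The other phospholipase of the list, Pla2g4b, had overlapping genotypes at 0.08 (adjusted p = 0.977). The formyl peptide receptor Fpr2 did not pass the detection filter. Of 21 genes of membrane repair and of the ESCRT machinery, which cuts and seals membranes, 16 were measured, 6 with positive and 10 with negative differences (median -0.25). The ESCRT subunit Chmp2b read 7.01, 6.87 and 7.13 in wild type and 6.34, 5.51 and 5.80 in Pax6-/- (-1.12, adjusted p = 0.376). Pef1, a penta-EF-hand calcium sensor, was at -0.98 (adjusted p = 0.505), and its genotypes did not overlap either.

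Of 11 genes of phosphatidylserine exposure and clearance, the lipid that Anxa5 binds, 7 were measured with a median of 0.05 and none without overlap. The receptors Mertk and Axl, which recognize bridged phosphatidylserine on dying cells, were at 0.42 (adjusted p = 0.727) and 0.25 (adjusted p = 0.888). Of 14 symbols listed for caveolae, rafts and ezrin-type linkers, some of them older names of the same genes, 6 were measured, with a median of -0.25. The scaffold Slc9a3r1 was at -0.56 (adjusted p = 0.653) and moesin, Msn, at 0.65 (adjusted p = 0.773). Of 8 calmodulins and other calcium sensors 5 were measured, with a median of 0.08. The calmodulin gene Calm3 read 12.29 on all 3 wild type arrays and 12.34 to 12.45 in Pax6-/-, without overlap but with a difference of only 0.10 (adjusted p = 0.902), and the S100-binding protein Cacybp was at -0.34 (adjusted p = 0.750).

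**Figure D4:**
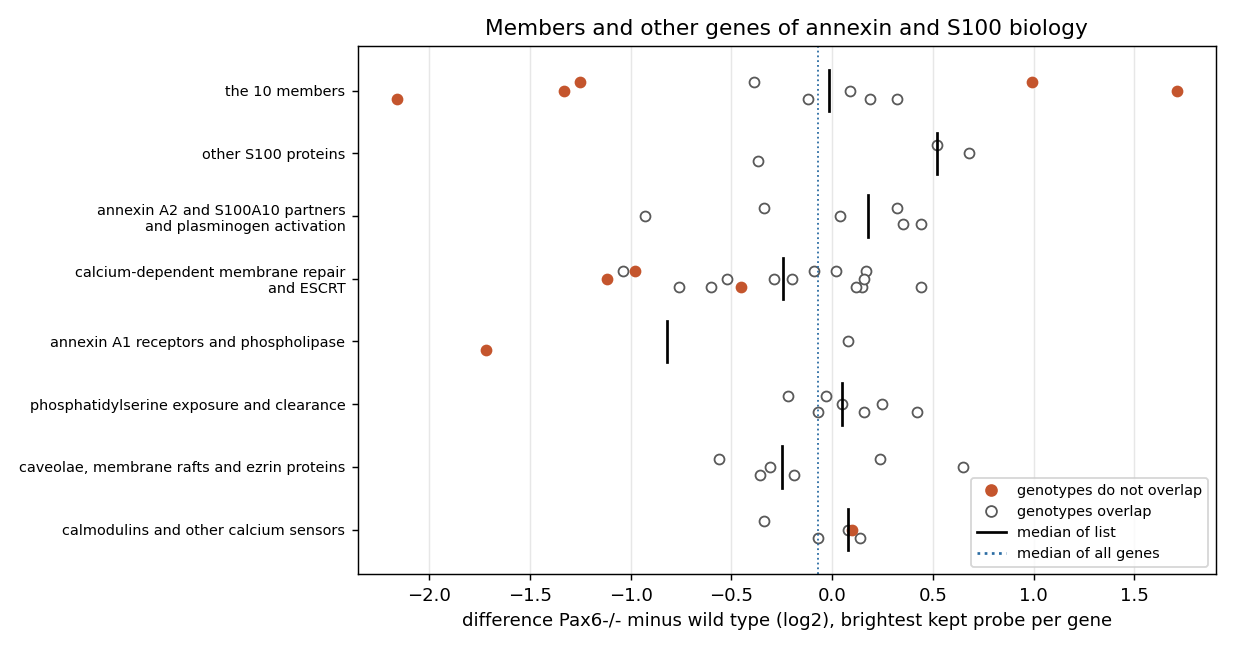
Difference Pax6-/- minus wild type (log2, horizontal axis) of the 10 members and of the measured genes of each related list, 1 point per gene on its brightest kept probe. Filled points have no overlap of the genotypes, bars are list medians and the dotted line is the median of all genes. The members span -2.16 to 1.71, and Pla2g4a at -1.72 lies farthest from 0 among the other genes.

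The summed signal of endothelial markers was lower on all Pax6-/- arrays, as were Anxa1, Anxa5 and Anxa6, with 7 of 9 markers at negative differences (median -1.15). For the 9 measured of 13 markers the linear sum was 979 to 1371 in wild type and 273 to 729 in Pax6-/-, with 8 to 9 and 2 to 5 of them detected per array. Kdr was detected on no array. The endothelial sum was lowest on Pax6-/- replicate 2, the array with the fewest probes detected. So were the macrophage, mesenchyme and primitive erythroid sums, while the sums of the other lists were lowest on other arrays. Of the members, Anxa5 and S100a11 were lowest on Pax6-/- replicate 2, as were Anxa1, Anxa3, Anxa6 and Anxa11, which were not detected on it. The rank of an undetected probe carries little weight: Anxa1 read 4.54 on that array and 4.55 on Pax6-/- replicate 1. For 9 measured of 15 periocular mesenchyme and neural crest markers the sum was 2209 to 2658 in wild type and 1547 to 1798 in Pax6-/-, but the median difference of the 9 was -0.01 and 4 were positive. Without Pdgfra, a receptor gene left out after its values were seen (-1.89), the other 8 summed to 1138 to 1638 in wild type and 1341 to 1393 in Pax6-/-, which overlap. The part of these cells in the annexin differences was not tested.

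Markers of macrophages, a cell type that also makes Anxa1, gave overlapping sums of 135 to 441 in wild type and 108 to 472 in Pax6-/-. Of 13 listed symbols, not all of separate genes, 3 were measured, and only Tyrobp had no overlap (-1.03). C1qa, Fcer1g and Ptprc were detected on no array. Beside the higher Anxa2 and S100a10, the surface ectoderm sum of 13 markers was 8704 to 9594 in wild type and 9113 to 11551 in Pax6-/-, which overlap. Of these markers 10 had positive and 3 negative differences (median 0.18), and 2 had no overlap, both higher in Pax6-/-. For the periderm, the outer layer of embryonic skin, 1 of 6 markers was measured (96 to 150 and 112 to 186), and Krt4, Krt6a and Krt17 were detected on no array. Sums for 6 of 9 primitive erythroid markers were 7015 to 14322 and 3807 to 15628, and those for 8 of 11 optic vesicle and neural markers 788 to 874 and 767 to 1148, so that both overlapped. The 6 erythroid markers all had negative differences (median -0.63), 1 of them without overlap. The 7 lens placode markers, which include Pax6 itself, summed to 4032 to 4981 in wild type and 2160 to 2702 in Pax6-/-. All 7 had negative differences (median -0.99), 6 of them without overlap. Whether any of these shifts contributed to the annexin values was not tested.

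The genes whose 6 centred values were most like those of a member were found by the smallest root mean square difference over the 6 arrays, among 10967 genes. For Anxa1 these were Champ1 (0.15), Maf (0.23) and Efemp1 (0.24), with differences between genotypes of -2.11, -2.59 and -2.22; Maf is also one of the lens placode markers. For Anxa2 they were Ptges (0.09), Kifc5b (0.19) and Tanc2 (0.22), at 1.60, 1.40 and 1.80. For Anxa5 they were Akap10 (0.15), Eno3 (0.15) and Ndfip1 (0.16), at -1.21, -1.10 and -1.11. These genes were picked for their likeness over few arrays, so the closeness itself is not a finding. S100a10 was not among the 3 genes most like Anxa2. With only 3 of 10967 genes kept, this says nothing about how closely S100a10 followed Anxa2.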

How the data were processed

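The members, lists and tests were chosen with earlier results of these data known. The authors deposited, per the file headers, an average signal (intensity, linear, not background-subtracted) and a detection p-value per probe and array. Other columns deposited beside them, the bead number and bead standard error, were used for precision. Per the submitters' processing notes the software was GenomeStudio (version not stated). The authors' processed intensity values, linear and in part below 0, were given a floor of 16 and used as an alternative. Their background and normalization method were not stated.

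Signals were background-corrected with limma's neqc (limma 3.58.1, R 4.3.3, control distribution from the detection p-values, offset 16), quantile normalized and put on log2. The offset shrinks differences of dim probes. Of 45281 probes, 21971 (48.5%) were detected on at least 3 arrays and kept, and a gene is its brightest kept probe. Genotypes were compared with lmFit and eBayes and Benjamini-Hochberg adjustment. The procedure was run on simulated data with independent noise, which held no outlying array and no slide effect. That run says nothing about how it behaves where these are present. Symbols came from the platform annotation: 34885 probes had 1 symbol, 18 several and 10378 none, and 34807 matched the GRCm38.p6 gene table. Named were the 10 members, Pax6, the 2 genes of each pathway list with the smallest p (none being called), and the 3 genes most like each of 3 members; Tnc, Xist, Tyrobp, Pdgfra, Fpr2, the other annexins and undetected markers were added after their values were seen. Same-numbered arrays correlated at 0.06, 0.05 and 0.02 in their deviations, so the numbers were not taken as pairs. Figures were drawn with matplotlib 3.10.9.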

Additional observations from a re-analysis of the deposited data

How the results depend on the processing

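With 3 arrays per genotype, single arrays decided several values, and probes near background, as Anxa1 in Pax6-/-, have only a limit. Limma called 2 probes over all, but 0 among probes detected on all 6 arrays, 0 with the slide as a block, 0 with the replicate block, 6 without a detection filter, 17 with array weights, 21 genes with the mean of all kept probes, and 0 to 2 with 1 array left out (2 only without Pax6-/- replicate 2); unadjusted p-values under 0.05 numbered 2034 over all, 1429 among probes detected on all 6 arrays, 1337 with the slide block and 1911 with the replicate block. The count of 10 members with no overlap was 5, 5 to 6 with 1 array left out (6 without Pax6-/- replicate 2, S100a11 being added), and 6 with the mean of all kept probes (Anxa3 being added); among probes detected on all 6 arrays it was 3 of 6 members measured, since Anxa1, Anxa3, Anxa6 and Anxa11 then had no probe. Genes with no overlap numbered 2605 to 3532 with 1 array left out, where fewer arrays have to separate. The median of the members was 0.25 among probes detected on all 6 arrays, -0.25 within slide 2, and -0.25 to 0.09 with 1 array left out. None of the related genes was called in the 16 alternatives that gave a test. The replicate block left each member's difference as it was, which was fixed in advance, since each number holds 1 array of each genotype. Same-numbered arrays share only a number, and replicate 3 did not correlate best with its own.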
